A study of Mus musculus with 2 samples.

Results

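The genes described here are mostly nuclear genes for subunits of the respiratory chain, with assembly factors of complex I and Ndufb1-ps among them. They were taken as every row of the gene list whose symbol starts with Nduf, Uqcr or Atp5, or with Cox followed by a digit from 4 to 8, with Cox4i2 left out. This rule gave 89 of 32286 genes: 36 of complex I, 8 of complex III, 17 of complex IV, 17 of complex V, 8 assembly factors of complex I (Ndufaf), the pair Ndufa4 and Ndufa4l2, and Ndufb1-ps. The rule itself uses no measured value, and it leaves out the genes of complex II and of cytochrome c1.

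The respiratory chain sits in the inner mitochondrial membrane. Complexes I, III and IV pass electrons from NADH to oxygen and pump protons, and complex V, the ATP synthase, uses the proton gradient to make ATP. A few catalytic core subunits are encoded by mitochondrial DNA, and the rest are made in the cytosol from nuclear genes and imported. Several complex IV subunits exist as a broadly expressed form and as forms restricted to muscle, lung, testis or other tissues.

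The study sequenced the RNA of single lung cells from BALB/c mice carrying 4T1 cells, a mouse mammary carcinoma line, in the mammary fat pad. Lungs were taken on day 14 after inoculation. One group had received IgG as the control antibody and the other the S100A4-11 antibody, in a series about inhibiting S100A4, a calcium-binding protein. Each group was a single droplet library made with a 10x 5′ kit, the number of mice per library is not given in the labels, and the extraction text speaks of tumour tissue where the other labels say lung.

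With 1 library per group there is no replicate error and no test. Intervals given below are 95% exact intervals for counting error only, and no treatment effect can be told apart from a difference between 2 libraries. The IgG library held 14411 barcodes and 85458143 UMIs and the S100A4-11 library 12506 barcodes and 64695542 UMIs, with 266 barcode sequences present in both. After filtering, 13658 and 11750 cells remained, with a median of 4028 and 3661 UMIs. They formed 33 clusters, of which 12 cell classes with at least 100 cells in each library were read. Classes were named from marker genes, so each is "like" its name, and the type 2 alveolar epithelial-like class carried the surfactant genes that mark lung. Levels are UMIs of a gene per 1000000 UMIs of the class (CPM), and the library ratio is the S100A4-11 CPM over the IgG CPM. A gene was read in a class where the 2 libraries together held at least 50 UMIs of it, and it was called higher or lower where the ratio passed 5/4 or fell under 4/5 and its interval excluded 1, which is a rule of size.

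The promoters of 3 members are shown because the first 2 belong to the genes with the most calls between the libraries and the third carries a motif found in the first without any call. Each line gives the 120 bases before the RefSeq start on GRCm38.p6, 5′ to 3′ on the gene's strand, with the NRF1 core GCGCATGCG, read on both strands, in capitals. All 3 genes lie on the minus strand: Atp5k at chr5:108434400-108434519, Ndufb1-ps at chr12:101975739-101975858 (RefSeq symbol Ndufb1) and Atp5g2 at chr15:102671048-102671167.
Atp5k: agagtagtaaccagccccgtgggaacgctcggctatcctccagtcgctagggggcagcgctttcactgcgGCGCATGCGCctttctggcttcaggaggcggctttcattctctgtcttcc
Ndufb1-ps: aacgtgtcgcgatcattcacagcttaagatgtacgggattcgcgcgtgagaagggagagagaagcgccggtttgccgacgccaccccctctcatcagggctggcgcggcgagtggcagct
Atp5g2: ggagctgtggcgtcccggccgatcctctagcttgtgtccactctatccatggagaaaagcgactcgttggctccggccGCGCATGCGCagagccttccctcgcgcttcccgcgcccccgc
The capital runs in Atp5k and Atp5g2 are 2 overlapping matches, 1 per strand, and the Ndufb1-ps window holds none.

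Over windows of 300 bases around the RefSeq start, 74 of the 89 members had a sequence. NRF1, ETS-family factors such as GABPA, and YY1 are transcription factors known to act on many nuclear genes for mitochondria. The NRF1 core was in 10 members (13.5%) and in 527 of 27025 genes with a window (1.95%). The ETS core CCGGAAG was in 17 members (23.0%) against 9.93% of all genes, and the YY1 core AAGATGGCG in 8 members (10.8%) against 1.64%, on either strand. Any of the 3 cores was in 29 members (39.2%) and in 12.7% of all genes. A match is a run of letters and does not show binding.

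The level of the 89 genes together differed several-fold between cell classes and by at most 1.14-fold between the libraries within a class. Alveolar macrophage-like cells stood highest, with 21649 CPM with IgG and 21718 CPM with S100A4-11. Classical monocyte-like cells followed with 19397 and 19061 CPM. Neutrophil-like cells stood lowest, with 4600 and 4913 CPM. The alveolar macrophage level was 4.71 times the neutrophil level with IgG and 4.42 times with S100A4-11. The other 9 classes lay between 13691 CPM (B cell-like, IgG) and 18840 CPM (pericyte or smooth muscle-like, S100A4-11). Neighbours in this order, such as T cell-like cells (15233 CPM, then 15591 CPM) and the fibroblast-like class (15121 CPM, then 17186 CPM), changed places between the libraries.

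**Figure D1:**
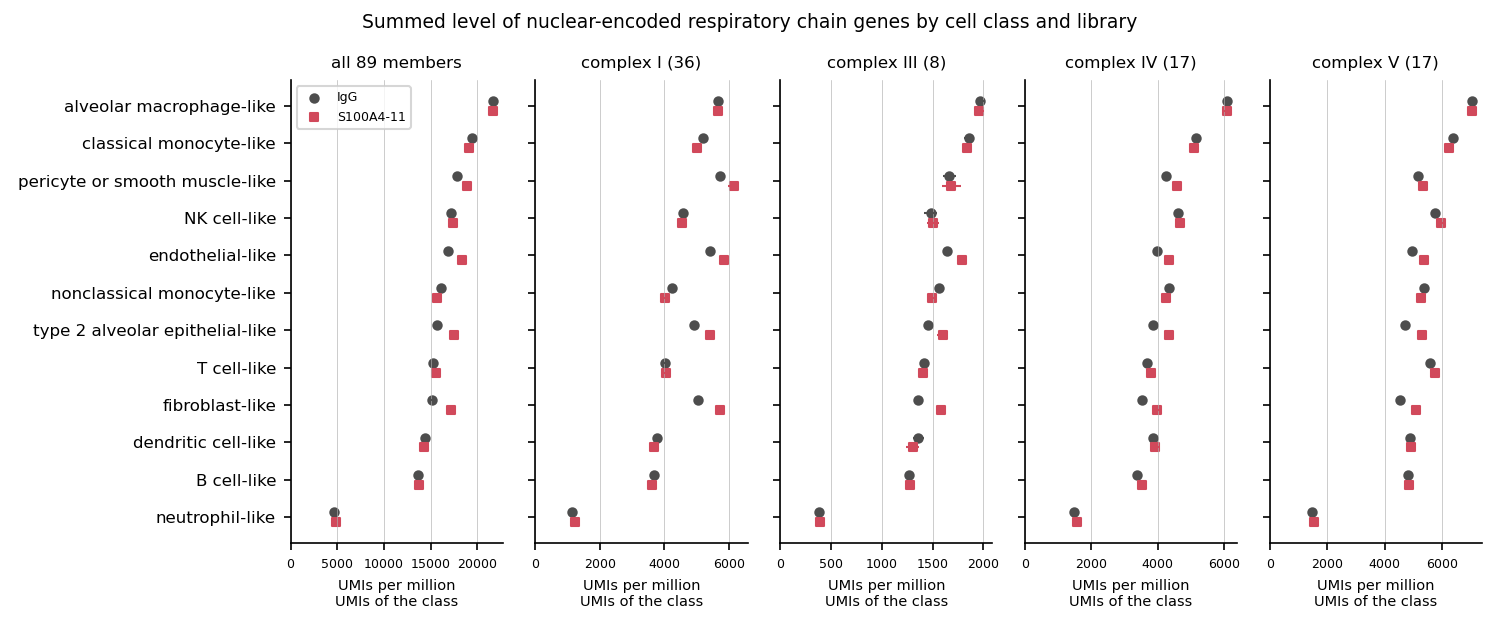
Summed level of the 89 genes and of complexes I, III, IV and V in each of the 12 cell classes, in UMIs per 1000000 UMIs of the class, for the IgG library (circles) and the S100A4-11 library (squares), with 95% counting intervals where wider than the symbol. For all 89 genes, neutrophil-like cells lie at 4600 and 4913 CPM and every other class at or above 13691 CPM.

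Neutrophils are short-lived granulocytes known for relying on glycolysis and for having few mitochondria. Of the 76 members read in neutrophil-like cells, 75 had their lowest class level there (98.7%), against 44.0% of the 8158 genes read in that class. The exception was the assembly factor Ndufaf7. A low level in this class was not particular to members. Cytosolic ribosomal protein genes gave 2.14 and 2.28% of UMIs in neutrophil-like cells. In endothelial-like cells, the next lowest class for them, they gave 7.29 and 8.10%. The median over the other 11 classes was 4.37 times the neutrophil level in the median member and 1.77 times in the median gene. By complex, this median fold was 5.82 in complex I, 5.09 in complex III, 3.13 in complex IV and 4.40 in complex V. Ndufc2, a membrane-arm subunit of complex I, had the widest gap at 15.3-fold, with 6.61 and 9.84 CPM in neutrophil-like cells and 257 and 277 CPM in type 2 alveolar epithelial-like cells. Cox8a, a small complex IV subunit, had 461 and 489 CPM in neutrophil-like cells, and in NK cell-like cells it had 1040 and 1078 CPM. An unnamed cluster of 518 and 395 cells was also low, at 5624 and 5426 CPM.

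The makeup of the sum also differed between classes. Complex I genes gave 24.4 to 26.9% of the members' UMIs in the 8 leukocyte-like classes and 30.9 to 33.4% in the endothelial-like, fibroblast-like, pericyte-like and type 2 epithelial-like classes, with no overlap in either library. Complex V genes ran the other way, with 31.7 to 37.0% in the leukocyte-like classes and 28.4 to 30.4% in the other 4. Complex III genes gave 7.95 to 9.74% everywhere. Complex IV genes gave 32.2 and 32.0% in neutrophil-like cells and 23.2 to 28.1% in the other classes. The split between leukocytes and tissue cells was looked at after the levels had been seen.

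**Figure D2:**
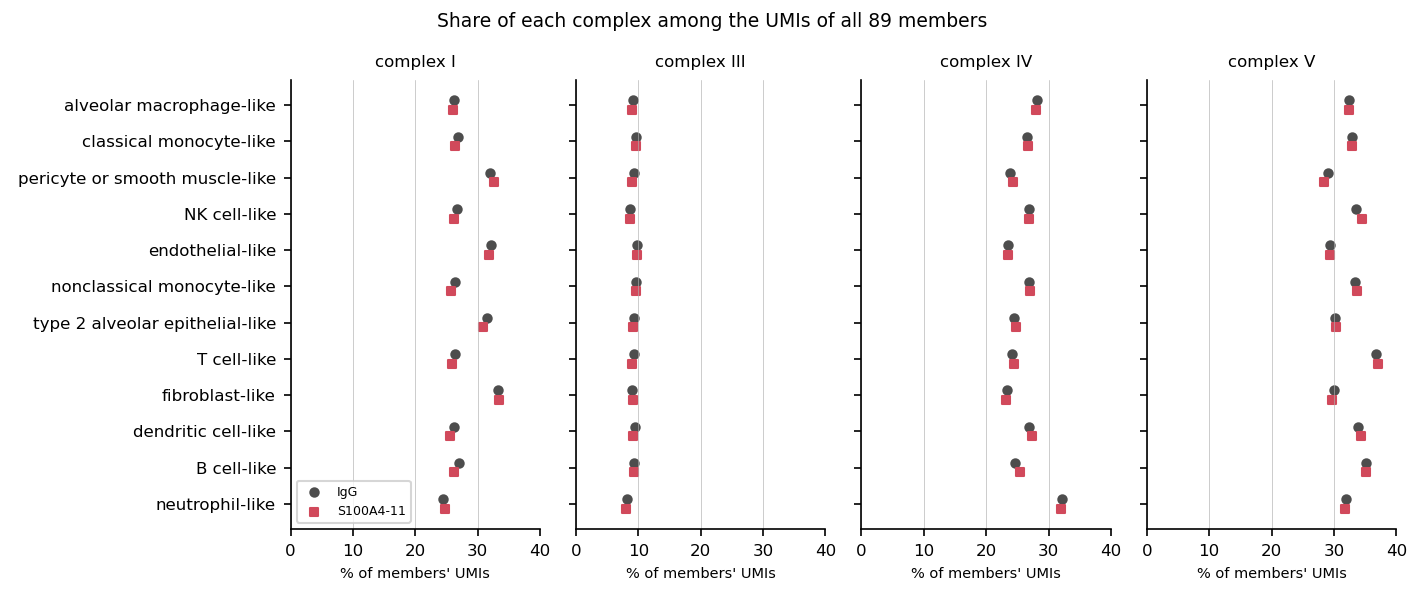
Share of the members' UMIs from complexes I, III, IV and V in each class and library, in percent. The 4 tissue classes lie at 30.9 to 33.4% for complex I and the leukocyte classes at 24.4 to 26.9%.

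Of the 75 members read in all 12 classes, 6 took a larger share of the members' UMIs in each tissue class than in any leukocyte class (8%), and 4 a smaller one (5.33%). For the 4594 other genes read in all classes, scaled to the members' UMIs in the same way, these shares were 1.98% and 3.07%. The 6 were Ndufb3, Ndufs6, Ndufa12 and Ndufa11 of complex I, Uqcr10 of complex III and the assembly factor Ndufaf3. The median share of Ndufa11 was 1.09% in tissue classes and 0.623% in leukocyte classes, and that of Ndufa12 was 0.694% and 0.435%. The 4 with a smaller share were Uqcrfs1, which encodes the Rieske iron-sulphur protein of complex III, Cox5a and Cox4i1 of complex IV, and Atp5l of complex V. Uqcrfs1 had a median share of 0.535% in tissue classes and 0.991% in leukocyte classes, and Cox5a 0.969% and 1.59%.

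Of the 89 members, 75 were read in every class. In complex I, Ndufa6 was highest in classical monocyte-like cells (495 and 485 CPM) and lowest in neutrophil-like cells (60.6 and 69.8 CPM). Ndufa7 was highest in type 2 epithelial-like cells (309 and 340 CPM). Ndufb11 reached 287 and 263 CPM among NK cell-like cells, and 64.6 and 66.7 CPM in neutrophil-like cells. All 3 are accessory subunits, which surround the catalytic core.

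In complex III, Uqcrh, the hinge protein of the cytochrome bc1 complex, had 531 and 511 CPM in T cell-like cells. Uqcr11 had 379.5 and 389 CPM in alveolar macrophage-like cells and 84.0 and 79.6 CPM in B cell-like cells. Uqcrq had 339 and 367 CPM in alveolar macrophage-like cells. For Uqcr11, the type 2 epithelial-like cells of the S100A4-11 library reached 390 CPM, against 327 CPM in the IgG library.

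In complex IV, Cox4i1 and Cox6c were highest in alveolar macrophage-like cells, with 1161 and 1111 CPM for Cox4i1 and 638 and 657 CPM for Cox6c. Their neutrophil levels were 207 and 224 CPM and 108 and 116.5 CPM. In complex V, Atp5e, the epsilon subunit, had 923 and 984 CPM in alveolar macrophage-like cells and 231 and 250 CPM in neutrophil-like cells. Atp5l had 678 and 672 CPM in alveolar macrophage-like cells. The 3 genes Atp5g1, Atp5g2 and Atp5g3 encode the same mature c-ring protein. Each was highest in alveolar macrophage-like cells, with 354.5 and 355 CPM, 607 and 559 CPM, and 622 and 608 CPM, and each fell below 54 CPM in neutrophil-like cells. Among the assembly factors, Ndufaf3 had 51.9 and 61.0 CPM in endothelial-like cells, Ndufaf8 had 59.4 and 47.8 CPM among NK cell-like cells and Ndufaf4 had 37.0 and 29.55 CPM in pericyte-like cells.

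Against this broad pattern, 5 members were restricted, with a highest class level at least 5 times the median class level: Ndufa4l2, Cox6a2, Cox8b, Cox6b2 and Cox7b2. Cox7b2 had 17 UMIs in all classes and was not read, and neither was the testis form Cox8c with 1 UMI.

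Ndufa4l2, a paralogue of Ndufa4 known as a hypoxia-responsive gene, was highest of the 12 classes in pericyte or smooth muscle-like cells. It had 386 CPM there with IgG (678 UMIs) and 446 CPM with S100A4-11 (362 UMIs). It was seen in 38.0 and 41.2% of these cells (median depth 2649 and 2367 UMIs) and in 0.110 and 0.108% of T cell-like cells (3849 and 3925 UMIs). Outside the named classes, an unnamed cluster of 412 and 187 cells had 114 and 77.4 CPM of Ndufa4l2. The 12 classes held 1523 of its UMIs, where 1817 were kept in the IgG and 680 in the S100A4-11 library. Its exons overlap Shmt2 on the other strand. Ndufa4, now placed with complex IV, was broad, with 536 and 581 CPM in endothelial-like cells and 36.04 and 38.74 CPM in neutrophil-like cells.

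Ndufa4l2 was called lower in fibroblast-like and type 2 epithelial-like cells, at low levels. Fibroblast-like cells had 22.8 and 7.94 CPM, a ratio of 0.349 (interval 0.220 to 0.534), and type 2 epithelial-like cells had 18.1 and 6.63 CPM, a ratio of 0.367 (0.194 to 0.645). In type 2 epithelial-like cells, 5 cells held 40.2% of its UMIs with IgG and 92.9% with S100A4-11, and in fibroblast-like cells 5 cells held 36.3 and 57.7%. Markers of pericytes and smooth muscle moved with it: their sum in type 2 epithelial-like cells was 300 and 82.45 CPM, with 10 of 10 markers lower and Acta2 at 67.5 and 1.90 CPM. In fibroblast-like cells that sum moved less, from 1187 to 1022 CPM. There 7 of 10 markers were lower, and Pdgfrb, Des and Lmod1 were higher. The part of such cells or of their free RNA in these 2 ratios was not tested.

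Cox6a2, the heart and skeletal muscle form of subunit 6a, was read in type 2 epithelial-like cells at 150.5 and 210 CPM. The ratio was 1.395 (1.24 to 1.57), and 55.8 and 61.0% of these cells held a UMI (median depth 11091 and 9386 UMIs), against 0.162 and 0.0979% of endothelial-like cells (3310 and 3189 UMIs). The summed type 2 markers of the class moved with it, from 149980 to 184629 CPM, a ratio of 1.23. In dendritic cell-like cells Cox6a2 had 34.1 and 70.5 CPM, from 9 of 146 and 9 of 127 cells, and 5 cells held 75 and 71.0% of the UMIs. The 9 type 2 markers summed to 634 and 500 CPM there. Sftpc (212 and 34.85 CPM) and 6 others were lower, and Napsa (332 and 405 CPM) and Abca3 (36.3 and 43.2 CPM) were higher. Their part in the Cox6a2 ratio was not tested. Its exons overlap Itgad on the other strand, so reads of the pair cannot be separated without strand. The paralogue Cox6a1 was broad, with 387 and 378 CPM in pericyte-like cells.

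Cox8b, known from heart, muscle and brown fat, was a fibroblast transcript here, with 29.35 and 42.45 CPM (ratio 1.45, 1.15 to 1.82) and a UMI in 10.9 and 13.1% of cells (median depth 4043 and 3139 UMIs), against 0.0858 and 0.147% of neutrophil-like cells (3713 and 3533 UMIs). Cox6b2, known as the testis form of subunit 6b, was highest in alveolar macrophage-like cells, with 40.8 and 31.5 CPM (ratio 0.772, 0.619 to 0.957) and a UMI in 24.9 and 20.4% of cells (8275 and 8132 UMIs), against 0.257 and 0.147% of neutrophil-like cells. The broad paralogue Cox6b1 had 650 and 644 CPM in that class. Cox7a1, the muscle form, had 332 UMIs in all classes. With IgG it was highest in alveolar macrophage-like cells, at 8.935 CPM, where S100A4-11 gave 9.20 CPM. With S100A4-11 it was highest in type 2 epithelial-like cells, where its ratio was 1.88. Cox7a2 had 412.5 and 433 CPM in endothelial-like cells, Cox7a2l, a factor of supercomplex assembly, 219 and 218.5 CPM in T cell-like cells, and Cox7b 226 and 242 CPM in alveolar macrophage-like cells.

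**Figure D3:**
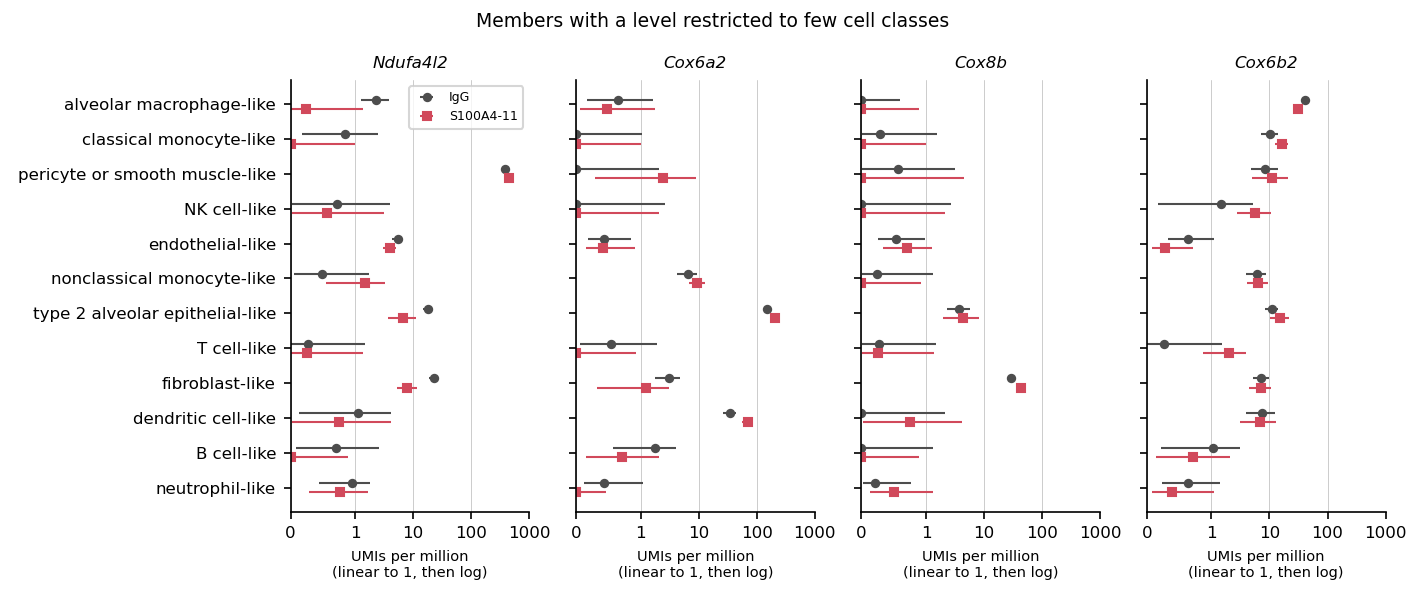
Levels in CPM of Ndufa4l2, Cox6a2, Cox8b and Cox6b2 across the 12 classes in both libraries, on an axis that is linear up to 1 CPM and logarithmic above, with 95% counting intervals. Ndufa4l2 reaches 386 and 446 CPM in pericyte or smooth muscle-like cells, Cox6a2 150.5 and 210 CPM in type 2 epithelial-like cells.

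Between the libraries, the sum of the 89 genes was higher with S100A4-11 in the tissue classes and in neutrophil-like cells, and close to 1 in most leukocytes. The ratio was 1.14 (1.12 to 1.15) in fibroblast-like cells, 1.12 (1.10 to 1.13) in type 2 epithelial-like cells, 1.09 (1.08 to 1.09) in endothelial-like cells, 1.07 (1.05 to 1.08) in neutrophil-like cells and 1.05 (1.03 to 1.08) in pericyte-like cells. It was 1.02 (1.01 to 1.04) in T cell-like cells. In B cell-like, NK cell-like, dendritic cell-like and alveolar macrophage-like cells the interval held 1, with ratios from 0.995 to 1.01. It was below 1 in classical monocyte-like cells (0.983, 0.972 to 0.993) and nonclassical monocyte-like cells (0.972, 0.961 to 0.983).

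The 4 complexes moved by similar factors in fibroblast-like, endothelial-like and alveolar macrophage-like cells, and less alike in some other classes. In fibroblast-like cells the ratios of complexes I, III, IV and V were 1.14, 1.164, 1.13 and 1.13. In endothelial-like cells they were 1.08, 1.09, 1.09 and 1.08, and in neutrophil-like cells 1.08, 1.03, 1.06 and 1.06. In alveolar macrophage-like cells they lay between 0.994 and 1. In B cell-like cells they fell on both sides of 1, with 0.980 for complex I and 1.04 for complex IV.

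Composition moved with the endothelial and fibroblast ratios. Some clusters of these classes had few member UMIs and over 15000 CPM of Malat1, a nuclear long noncoding RNA, and their share of the class was smaller in the S100A4-11 library. Among endothelial-like cells, 1 such cluster went from 16.9 to 11.7% of the cells, with 6839 and 6613 CPM of members. Among fibroblast-like cells, another went from 22.03 to 16.09%, with 4194 and 3243 CPM of members and 31354 and 37911 CPM of Malat1. With the clusters of a class weighted alike in both libraries, the ratio was 1.03 in endothelial-like, 1.05 in fibroblast-like, 1.04 in pericyte-like and 1.065 in neutrophil-like cells. Without the clusters high in Malat1 it was 1.04, 1.07 and 1.02 in the first 3 classes. Dissociation stress genes also moved, with 16 of 19 called lower in endothelial-like cells (summed 10582 and 7697 CPM), and haemoglobin UMIs in fibroblast-like cells went from 144 to 505 CPM. Type 2 epithelial markers summed to 340 and 141 CPM in fibroblast-like cells and to 336 and 179 CPM in endothelial-like cells, with 8 of 9 lower in each. In type 2 epithelial-like cells, fibroblast markers summed to 1611 and 1031 CPM, with 10 of 11 lower, and pericyte or smooth muscle markers to 300 and 82.45 CPM. The part of these genes in the ratios was not tested.

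**Figure D4:**
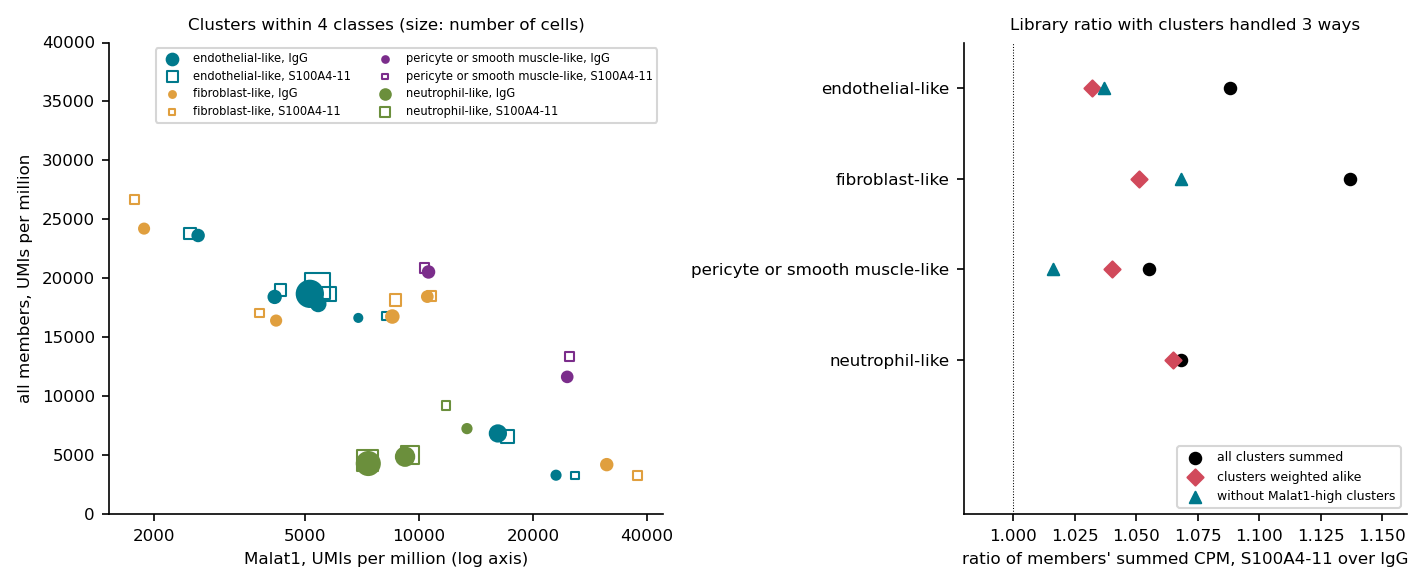
Left, summed member level against Malat1 level on a log axis, both in CPM, for the clusters of 4 classes in both libraries (symbol size, number of cells). Right, the library ratio of the class with all clusters summed, with clusters weighted alike and without the clusters high in Malat1. The clusters over 15000 CPM of Malat1 lie below the other clusters of their class in member level.

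In fibroblast-like cells 13 of 85 members read were called higher, where 4.07% of all genes read were, and 1 was called lower, where 12.9% were. The median log2 ratio was 0.19 over members and -0.04 over all genes. The 13 comprised 6 genes of complex I, 3 of complex III, 1 each of complexes IV and V, 1 assembly factor and Ndufb1-ps. Atp5k, the e subunit that helps ATP synthase pair into dimers, had 93.8 and 143 CPM (ratio 1.53, 1.35 to 1.73). Ndufb1-ps had 115 and 169 CPM (1.47). Uqcr10 had 185 and 242 CPM (1.31), Uqcr11 236 and 299 CPM (1.27) and Ndufv3, an accessory subunit near the NADH site, 113 and 148 CPM (1.31). The others called higher were Ndufa3, Ndufa9, Ndufa12, Ndufs7, Ndufs8, Uqcrc2, Cox8b and Ndufaf8, and the gene called lower was Ndufa4l2. The count of 13 became 4 with the clusters weighted alike (Atp5k, Cox8b, Ndufaf8 and Ndufb1-ps), and also 4 without the cluster high in Malat1 (Atp5k, Cox8b, Ndufb1-ps and Ndufv3). With the clusters weighted alike the median log2 ratio was 0.07 over members and -0.03 over all genes. The share of all genes called higher was not counted under either setting, so these counts of 4 have no background beside them. With doublets kept 9 of the 13 were called, without Ndufv3, Uqcr11, Ndufa9 and Uqcrc2. With every cell weighing the same 14 members were called, 7 of them among the 13.

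In endothelial-like cells 3 of 83 members read were called higher (3.05% of all genes read) and none lower (9.44%). The median log2 ratio was 0.09 over members and -0.02 over all genes, and 0.03 and -0.01 with the clusters weighted alike. Ndufb1-ps had 122 and 186 CPM (1.52, 1.44 to 1.61), Atp5k 113 and 165 CPM (1.46, 1.37 to 1.55) and Ndufa3, an accessory subunit of complex I, 221 and 284 CPM (1.285, 1.23 to 1.34). Ndufa3 shares exon positions with Tfpt on the other strand, and it was no longer called with the clusters weighted alike.

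In neutrophil-like cells 5 of 76 members read were called higher (4.87% of all genes read) and none lower (5.88%). The clusters of this class differed in the summed ratio. It was 1.05 in the largest (1368 and 1097 cells), 1.03 in the next (829 and 840) and 1.27 in the smallest (135 and 107). Atp5mpl, a small ATP synthase subunit, had 46.3 and 61.5 CPM (1.33, 1.165 to 1.52), and Atp5k had 20.2 and 28.5 CPM (1.415). Ndufb1-ps had 74.3 and 94.5 CPM (1.27). Ndufs7, which carries the last iron-sulphur cluster of complex I, had 30.9 and 39.4 CPM (1.27). Ndufc2, at 6.61 and 9.84 CPM (1.49, 1.05 to 2.12), was at 0.993 when cells needed at least 500 genes. Ndufs7 and Ndufc2 were not called with that filter, with every barcode kept or with doublets kept. With every cell weighing the same 4 members were called, and 2 of them (Atp5k and Atp5mpl) were among the 5.

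Few members were called in the 3 other main classes. In B cell-like cells none of 82 was called higher (2.34% of all genes read) and 1 lower (6.7%): Ndufv3, with 103 and 81.6 CPM (0.793). In T cell-like cells 3 of 80 were called higher (3.94%) and none lower (5.8%): Ndufb1-ps with 112 and 148 CPM (1.33), Atp5k with 87.1 and 109.5 CPM (1.26) and Ndufaf3 with 12.6 and 19.75 CPM (1.56). In classical monocyte-like cells 2 of 81 were called higher (4.28%) and 1 lower (4.17%). Atp5k had 104 and 143.5 CPM (1.38) and Cox6b2 10.2 and 16.4 CPM (1.615, 1.05 to 2.51). Ndufs1, the largest subunit of complex I, had 37.8 and 27.9 CPM (0.738). These shares were near or below the background in each class.

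In type 2 epithelial-like cells 8 of 86 members were called higher (6.32% of all genes read) and 1 lower (11.7%). The 8 were Atp5k (92.8 and 154 CPM), Ndufb1-ps (126 and 191 CPM), Atp5mpl, Atp5md, Ndufa10, Ndufa1, Cox6a2 and Cox7a1. In dendritic cell-like cells 5 of 77 were called higher (5.96%) and none lower (6.96%): Ndufa10, Ndufc1, Atp5k, Cox6a2 and Ndufb1-ps. Pericyte-like cells had 4 of 80 higher (4.23%) and none lower (7.73%): Ndufb4, Ndufb6, Ndufs8 and Atp5k. In alveolar macrophage-like cells Atp5k, Ndufa9 and Ndufb1-ps were called higher, 3 of 84 (2.24%), and Ndufaf1 and Cox6b2 lower (4.69%). In NK cell-like cells Ndufab1 and Ndufs6 were called higher, 2 of 78 (3.45%), and none lower (4.53%). In nonclassical monocyte-like cells Atp5k and Ndufb1-ps were called higher, 2 of 82 (3.43%), and Ndufa9 lower (6.18%).

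**Figure D5:**
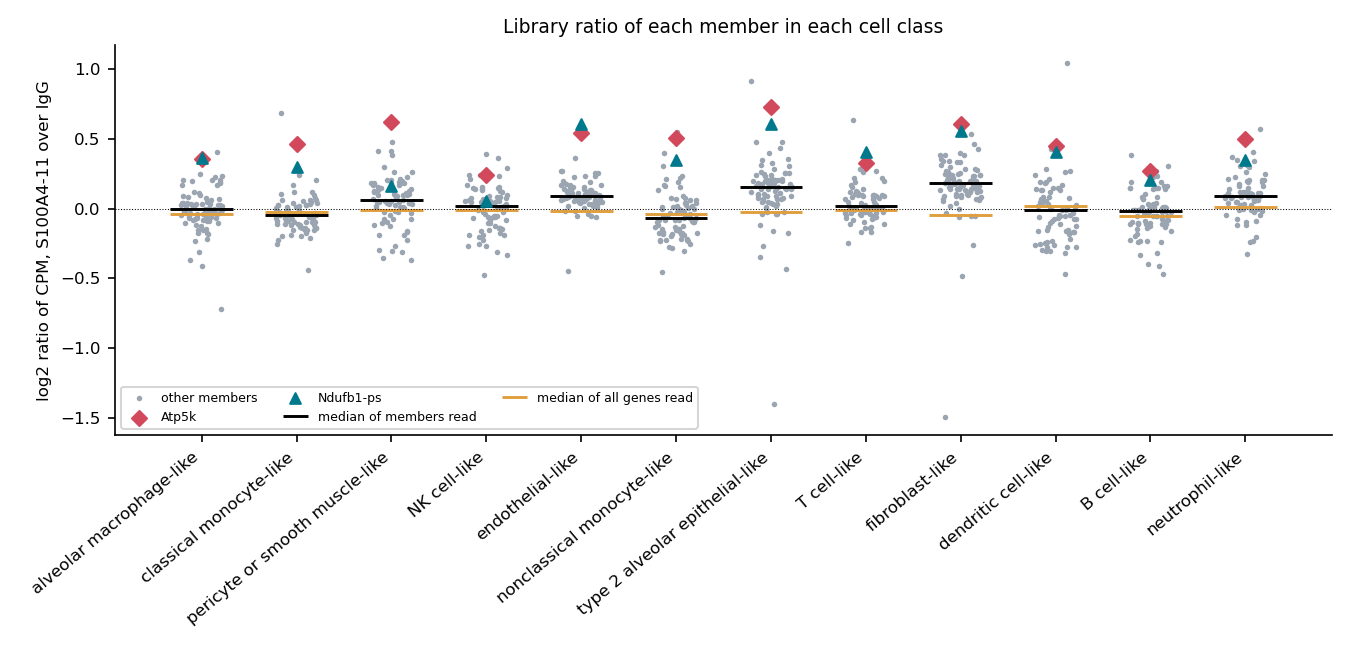
Log2 library ratio (S100A4-11 over IgG) of each member read in each class, with Atp5k (diamonds) and Ndufb1-ps (triangles) marked. Black lines are the medians of members and orange lines those of all genes read. Most members lie between 4/5 and 5/4, and Atp5k and Ndufb1-ps lie above 1 in all 12 classes.

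Atp5k was called higher in 10 of the 12 classes, and in 5 of the 6 main ones. It lies at chr5:108433244-108434448 on the minus strand and encodes 71 residues. It was not called in B cell-like (85.7 and 103 CPM, ratio 1.21) or NK cell-like cells (105 and 124 CPM, 1.18). Its level was highest in alveolar macrophage-like cells, with 145 and 185 CPM. Ndufb1-ps, at chr12:101968090-101977068 on the minus strand, was called higher in 8 of 12 classes. Its annotation differs between sources: GENCODE lists it as a noncoding RNA from a bidirectional promoter, and RefSeq as the protein-coding Ndufb1, a complex I subunit. Its exons overlap Cpsf2 on the other strand. It was highest in classical monocyte-like cells, with 312 and 384 CPM.

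Of the 75 members read in every class, 6 had a ratio above 1 in all 12 (8%), against 57 of 4669 genes (1.22%), and none had a ratio below 1 in all 12, against 54 genes. These were Atp5k (log2 ratio 0.24 to 0.73), Ndufb1-ps (0.06 to 0.61), Atp5mpl (0.09 to 0.43), Cox7c (0.12 to 0.30), Ndufb4 (0.01 to 0.41) and Cox8a (0.04 to 0.29). A call of higher in at least 8 classes was made for 17 of the 4669 genes (0.364%), 2 of them members and 5 of them among 80 cytosolic ribosomal protein genes. A call of lower in at least 8 classes was made for 13 genes, none of them a member. Among those 5, Rpl38, Rps28 and Rps29 were called higher in 12 classes. The count over all classes was chosen after the calls had been seen, and the 12 classes share the same 2 libraries.

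Several of these genes were short. Median spliced length in the GENCODE annotation was 321.5 bases for Atp5k, the shortest of all members, 435 for Atp5mpl, 382 for Rps28, 390 for Rps29 and 367.5 for Rpl38. It was 667 bases for Ndufb1-ps. This length is a median over a gene's protein-coding transcripts, or over all of them where it had none. It can be far from the main mRNA, so bins are rough. Uqcrc1 had 533 bases for 480 residues and Ndufs1 651 for 727, too few to encode them. Atp5g1 had 2675.5 bases for 136 residues. Up to 500 bases, 2 of 12 members and 7 of 91 other genes (7.69%) had a ratio above 1 in all classes. Above that and up to 1000 bases these counts were 4 of 49 members (8.16%) and 22 of 963 other genes (2.28%). Above 1000 and up to 2000 bases, none of 11 members and 13 of 1255 other genes (1.04%) had such a ratio. Over 2000 bases, none of 3 members and 9 of 2281 other genes (0.395%) had it. With so few members above 1000 bases, their share there cannot be told apart from that of other genes. In endothelial-like cells the median log2 ratio of members was 0.16 up to 500 bases, 0.09 in the bin up to 1000 and 0.05 in the bin up to 2000. For other genes it was 0.03, 0.03 and 0.01, and -0.06 over 2000 bases. Across genes, Spearman's rho between protein length and log2 ratio in endothelial-like cells was -0.51 over 82 members and -0.22 over 11490 other genes. In fibroblast-like cells it was weaker over members than over other genes, at -0.24 over 84 members and -0.33 over 10568 other genes. T cell-like cells had 0.01 over members and -0.14 over other genes, and dendritic cell-like cells 0.17 and -0.003. Spliced length was added after these values had been seen, and its part in the ratios was not tested.

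Other mitochondrial and ribosomal genes were read in the same classes, where 3.05% (endothelial-like), 4.07% (fibroblast-like) and 4.87% (neutrophil-like) of all genes read were called higher. Of the 13 subunits encoded by mitochondrial DNA, 2 were called higher and none lower in endothelial-like cells (summed 18233 and 20076 CPM), 5 and none in neutrophil-like cells (3401 and 3851 CPM), and 1 and 1 in fibroblast-like cells (16684 and 17248 CPM). None of the 4 complex II genes was called in these 3 classes. Of cytochrome c and cytochrome c1, 1 was called higher in neutrophil-like cells. Of the 46 assembly factors outside the symbol rule, 1 of 45 read was called higher and 1 lower in endothelial-like cells, and 4 of 43 higher in fibroblast-like cells. Mitochondrial ribosomal protein genes had 2 of 78 higher in endothelial-like and 7 of 78 higher in fibroblast-like cells, and cytosolic ones 7 of 80 and 9 of 80, with none lower. The citric acid cycle had 1 of 17 higher in fibroblast-like cells and none called in endothelial-like cells. Biogenesis regulators such as Nrf1 and Gabpa had 1 higher and 1 lower of 14 in endothelial-like cells and no call in fibroblast-like cells. Translocases had 2 of 24 higher in each of these classes, the adenine nucleotide and phosphate carriers and porins 1 of 6 higher in fibroblast-like cells, and glycolysis 2 higher and 1 lower of 18 in endothelial-like cells.

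Per cell, the members' share of UMIs had a median of 1.70% with IgG and 1.81% with S100A4-11 in endothelial-like cells, and of 1.60 and 1.79% in fibroblast-like cells. It was 0.418 and 0.440% in neutrophil-like cells and 2.18 and 2.18% in alveolar macrophage-like cells. Cells were also cut by depth within each class into 3 groups, from shallow to deep. The ratio was above 1 in all 3 groups in endothelial-like (1.09, 1.18 and 1.07), fibroblast-like (1.15, 1.155 and 1.13), neutrophil-like (1.02, 1.06 and 1.09), T cell-like (1.02, 1.02 and 1.02), pericyte-like (1.07, 1.22 and 1.04) and type 2 epithelial-like cells (1.37, 1.02 and 1.17). Depth still differed between the libraries within the type 2 epithelial-like groups. Median UMIs were 4203 and 5671.5 in the shallow group, 10745 and 10446.5 in the middle one and 19613 and 17317.5 in the deep one. In the other 6 classes the ratio fell on both sides of 1. It was 1.01, 0.980 and 0.967 in classical monocyte-like cells and 0.936, 1.06 and 0.964 in nonclassical monocyte-like cells.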

How the data were processed

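The deposited files hold raw UMI counts per gene and cell barcode, which the authors made with Cell Ranger 7.1.0 on mm10 (the GRCm38 assembly), per the submitters' processing notes. Whether counting used strand is not given in the sources used here, and 30 members share exon positions with a gene on the other strand. Cells with under 200 genes (67 in the IgG and 101 in the S100A4-11 library), over 15% mitochondrial UMIs (59 and 40) or a doublet call by Scrublet (627 and 615, 4.39 and 4.97%) were left out. The rest were clustered in Scanpy 1.11.5 (2000 variable genes without the members, 30 components, 15 neighbours, leidenalg 0.10.2 at resolution 1). Clusters were named from marker genes, by a rule set after the clusters were seen, and 3 stayed unnamed, 1 of them with 195 IgG cells and none from the other library. Named classes with under 100 cells in a library were not read.

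UMIs were summed per class and library. Ratios have exact conditional binomial intervals at 95%, and log2 ratios add 0.5 UMIs. Intervals ignore that UMIs of 1 cell are not independent. Self-tests on simulated counts were run first. The text names the 3 members of each complex with the highest CPM averaged over classes, restricted members and their paralogues, up to 5 called members each way per main class (endothelial, neutrophil, B, T, fibroblast, classical monocyte), and members called alike in at least 5 of these 6. Other names were chosen after their values were seen. The members, lists and promoter motifs were chosen with earlier results of these data known. Alternatives covered cell filters, doublets, resolution, scaling (TMM from edgeR 4.0.16 and median-of-ratios), weighting of cells and clusters, and the call rule. Promoters came from RefSeq on GRCm38.p6, and positions and spliced lengths from GENCODE on the same assembly.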

Additional observations from a re-analysis of the deposited data

Results flagged for a closer look

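In 4 pairs of classes a member was called in opposite directions. None of these differences was tested, since each group is 1 library. Ndufa9, a subunit of complex I, had a library ratio of 1.33 in alveolar macrophage-like cells and of 0.727 in nonclassical monocyte-like cells, and its ratio in fibroblast-like cells was 1.32. Cox6b2 had a ratio of 1.615 in classical monocyte-like cells and of 0.772 in alveolar macrophage-like cells. Ndufv3 had a ratio of 1.31 in fibroblast-like cells and of 0.793 in B cell-like cells.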

How the results depend on the processing

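Over all alternatives, the ratio of the summed members kept its side of 1 in endothelial-like (1.03 to 1.10), fibroblast-like (1.05 to 1.17), neutrophil-like (1.05 to 1.07), type 2 epithelial-like (1.05 to 1.14) and T cell-like cells (1.02 to 1.03), and in both monocyte-like classes. In pericyte-like cells it ranged from 0.995 to 1.10. With reduced totals, which left out genes of the mitochondrial genome, ribosomal proteins and haemoglobins, it was 1.024 in B cell-like, 1.10 in endothelial-like and 1.155 in fibroblast-like cells. With every cell weighing the same it was 1.031 in B cell-like and 1.104 in endothelial-like cells. Median-of-ratios factors gave 1.045 in B cell-like, 0.998 in classical monocyte-like, 1.102 in endothelial-like and 1.174 in fibroblast-like cells, and TMM factors 1.05, 0.999, 1.103 and 1.174. Allowing members among the variable genes gave 1.096 in endothelial-like cells. Weighting clusters alike gave 1.032 in endothelial-like and 1.051 in fibroblast-like cells, and leaving out clusters high in Malat1, a choice made after seeing the data, gave 1.037 and 1.068. In neutrophil-like cells it was 1.051 with every barcode, 1.052 with at least 500 genes and 1.048 with doublets kept.

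The count of members called higher in B cell-like cells, 0 as reported, was 1 with the reduced totals, 2 with cells weighing the same and 3 with either set of factors. In endothelial-like cells it was 5 with cells weighing the same. In classical monocyte-like cells it was 1 with at least 500 genes, with cells weighing the same and with at least 200 UMIs. In fibroblast-like cells it was 4 under both cluster settings. Past 1.5-fold the counts were 1 in T cell-like, classical monocyte-like, endothelial-like and fibroblast-like cells and 0 in neutrophil-like cells. Atp5k was above 1 in every class under each alternative that gave it a ratio.

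The alveolar macrophage level over the neutrophil level was 4.815 (IgG) and 4.629 (S100A4-11) with at least 500 genes, 5.406 and 5.055 with the reduced totals, and 4.932 and 4.693 with cells weighing the same. It was 4.60 in the IgG library at resolution 0.5, and in the S100A4-11 library 4.595 with every barcode and 4.583 with doublets kept. The ratio of Ndufc2 in neutrophil-like cells reversed to 0.993 with at least 500 genes. Causes of these shifts were not tested. Of the other values, 400 moved and 4973 did not. Some clusterings gave no dendritic cell-like or nonclassical monocyte-like class. No paired analysis was possible because each group is 1 library, and no library could be left out. Low depth limits Cox7a1, Cox7b2 and Cox8c most.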
